A study of Caenorhabditis elegans with 6 samples.

Results

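The genes described here are 9 genes of Wnt reception and planar cell polarity in Caenorhabditis elegans, measured in descendants of the right Q neuroblast (QR). They were taken by name from a table of 14700 genes. They are 4 Frizzled genes (mig-1, lin-17, mom-5 and cfz-2), the Ror receptor tyrosine kinase gene cam-1, the Ryk gene lin-18, and 3 genes of the planar cell polarity group, fmi-1 (Flamingo), vang-1 (Van Gogh) and prkl-1 (Prickle). Flamingo is a large cadherin of the cell surface and Van Gogh a membrane protein, whereas Prickle is cytoplasmic, so not every gene of the set encodes a receptor for Wnt.

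Wnts are secreted proteins that bind Frizzled receptors, and Ror and Ryk proteins act as further Wnt receptors or co-receptors. In the canonical branch of the pathway the signal passes through Dishevelled, frees β-catenin from a destruction complex and lets it act with a TCF factor on transcription. In C. elegans the β-catenin of this branch is BAR-1 and the TCF factor is POP-1. The Q neuroblasts are a left and right pair of neuronal precursors whose descendants migrate along the body in opposite directions. The left lineage answers a posterior Wnt through BAR-1 and the Hox gene mab-5, while the descendants on the right migrate forward.

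The series set out to find targets of canonical Wnt signalling in these cells. Control larvae carried the allele mab-5(gk670) and 2 transgenes, huIs166 and ayIs9, and ΔN-BAR-1 larvae carried all of these and huIs179 as well. The series describes the second group as ΔN-BAR-1 in the Q lineage, an N-terminally truncated and therefore stabilised BAR-1, but the labels do not give the promoter or the contents of the transgenes. Both groups lacked normal mab-5 and were first-stage larvae fed for 7 hours after arrest, and each group had 3 libraries made from pools of 2000 cells. Nothing in the labels says whether the libraries came from separate cultures, so p-values reflect only the spread among the libraries sequenced, which may be technical.

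Libraries held 68431 to 254362 estimated transcripts, with control replicate 3 the shallowest. Values below are counts scaled to library size by TMM (CPM), and 3 counts in control replicate 3 correspond to 49.4 CPM. Each transcript is counted once at its 3′ end, so levels of different genes are not scaled by length, although the efficiency of capture of each 3′ end is not known. The transgene could not be followed, since bar-1 held 5 counts in all control libraries and 15 in all ΔN-BAR-1 libraries, and mab-5 counts (176 and 170) need not be affected by the deletion. All 10 Q lineage markers were detected and tested, and summed to 7617 to 12730 CPM in control and 7344 to 9925 CPM in ΔN-BAR-1 libraries. Of the 10, 1 rose with ΔN-BAR-1 (mec-3, edgeR adjusted p under 0.05), beside 1.57% of all tested genes. Their median log2 fold change was −0.26. Muscle was also detected: summed markers of body wall muscle ranged from 8045 to 15400 CPM over the control libraries and from 5995 to 20270 CPM over the others. The muscle determinant hlh-1 was at 0 in every library. Hypodermis and seam markers summed to between 190.2 and 475 CPM, with dpy-7 and rol-6 at 0. Intestine, pharynx and germline markers summed to at most 82.4 CPM in any library, and elt-2, ges-1, pha-4, glh-2 and nos-2 were at 0. In pools of cells, fewer cells of a type and less RNA per cell cannot be told apart.

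Of the 9 genes, 7 passed the filter on low counts and 1 of those 7, mig-1, differed between the groups, beside 1.65% of all 3447 tested genes (edgeR quasi-likelihood test, Benjamini-Hochberg adjusted p under 0.05). It was higher with ΔN-BAR-1, as were 1.57% of tested genes. The other 6 tested genes did not pass, and cfz-2 and lin-18 were too low to be tested. The median log2 fold change of the 7 was 0.06, against 0.0003 over all tested genes. In mig-1 alone among the 7 the libraries of the groups did not overlap, which was so for 17.4% of all tested genes, or 10.4% when only genes higher with ΔN-BAR-1 are taken.

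**Figure D1:**
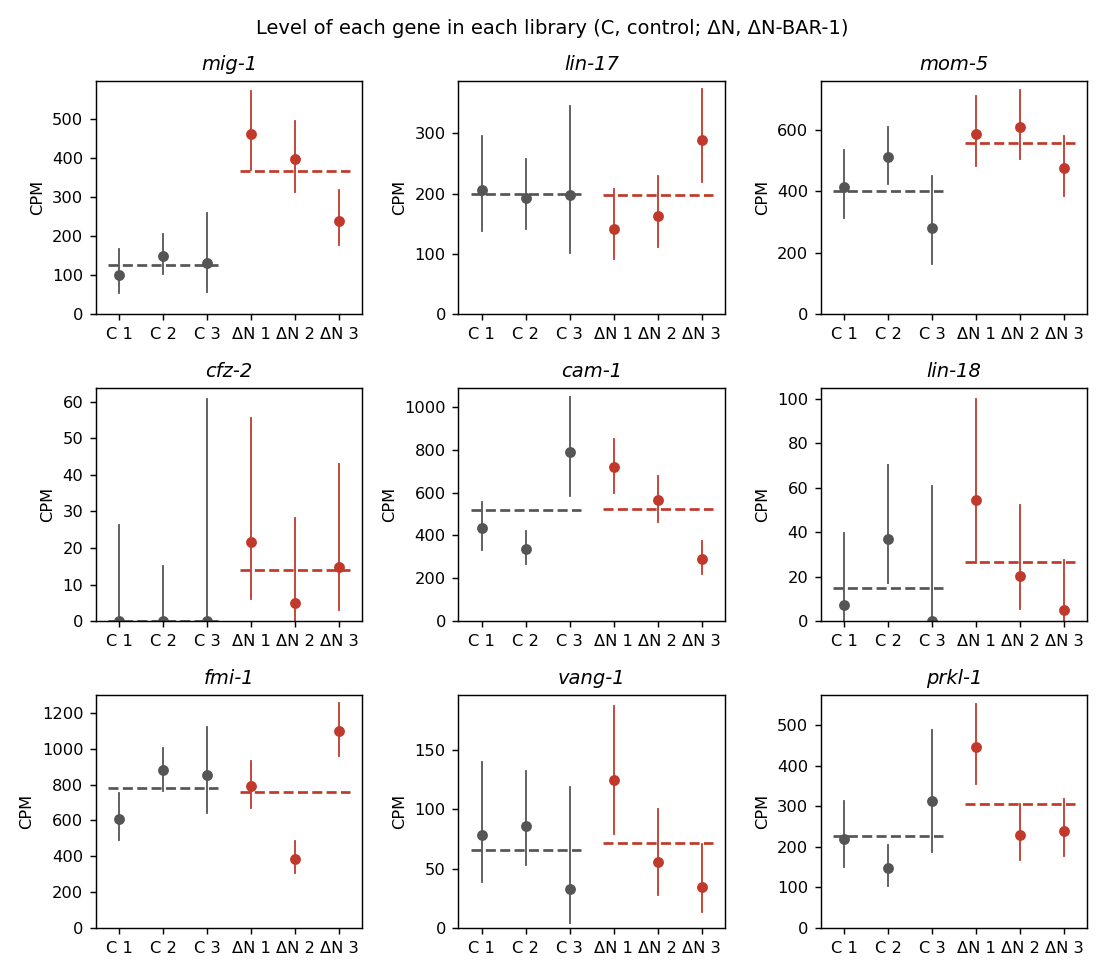
Level of each of the 9 genes in CPM in each of the 6 libraries (C, control; ΔN, ΔN-BAR-1), with vertical bars for the 95% Poisson interval, which covers counting error only, and dashed lines for the group means; each panel has its own scale. In mig-1 every ΔN-BAR-1 library lies above every control library, and in the other tested genes the groups overlap.

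The gene mig-1 encodes a Frizzled receptor needed for the migration of Q descendants and of other neurons such as HSN. It stood at 99.4, 148 and 132 CPM in control replicates 1 to 3, from 14, 36 and 8 counts. In ΔN-BAR-1 replicates 1 to 3 it stood at 462, 396 and 239.9 CPM, from 85, 78 and 49 counts. All 3 ΔN-BAR-1 libraries were above all 3 control libraries, and the lowest ΔN-BAR-1 library was the nearest to control. The 95% Poisson interval of that library was 178 to 317 CPM. It overlapped those of control replicate 2, 103.7 to 205 CPM, and control replicate 3, 56.9 to 259.6 CPM. Control replicate 3 rests on the fewest counts, but control replicate 2 on the most of the control libraries. The interval of control replicate 1, 54.4 to 166.8 CPM, did not reach it.

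The group means of mig-1 were 126 ± 24.8 CPM for control and 366 ± 114 CPM for ΔN-BAR-1 (SD, n = 3 each). The edgeR fit gave a 2.86-fold rise, with a 95% interval from 1.67 to 4.93 and an adjusted p of 0.0415. By p-value mig-1 stood at place 51 among the 57 genes called, and 51 of the 54 genes that rose did so by a larger factor. The call was close to the threshold: leaving out control replicate 1, 2 or 3 gave an edgeR adjusted p of 0.30, 0.145 and 0.157, and leaving out ΔN-BAR-1 replicate 2 gave 0.0959, while it held at 0.0478 and 0.0101 without ΔN-BAR-1 replicate 1 or 3. The log2 fold change stayed between 1.32 and 1.81 under all 15 alternatives, and 8 of them made the call. The 6 neuronal markers summed to 1349 to 1855 CPM in control and 3482 to 5109 CPM in ΔN-BAR-1 libraries. Of these, 5 were tested and 2 rose (rab-3 and ric-4), beside 1.57% of all tested genes. The 5 tested markers had a median log2 fold change of 1.48, beside 1.52 for mig-1 and 0.0003 over all tested genes. The part of this in the mig-1 result was not tested.

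**Figure D2:**
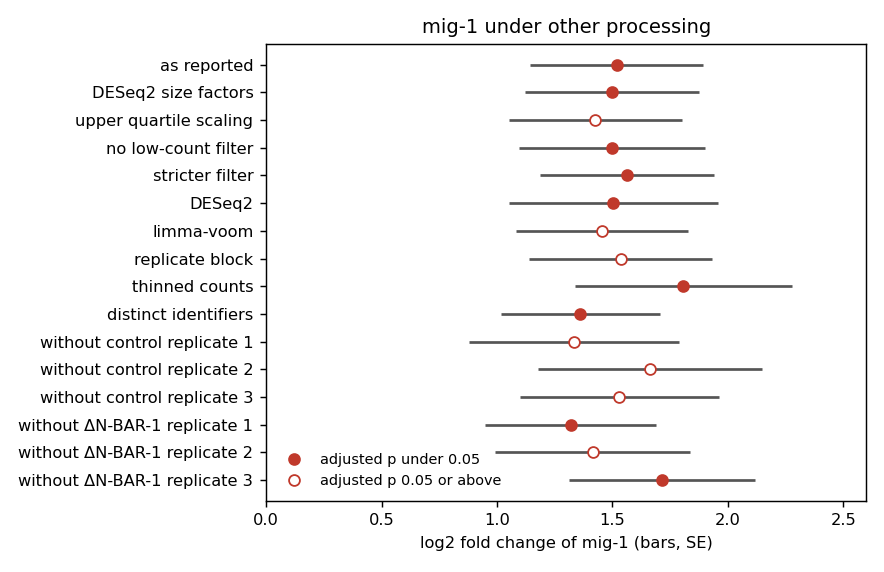
Log2 fold change of mig-1 (horizontal axis, ΔN-BAR-1 minus control, bars are the SE) as reported and under 15 other ways of processing or selecting the libraries; filled points have an adjusted p under 0.05. All values lie between 1.32 and 1.81, and the open points include the omission of each control library.

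The second Frizzled gene, lin-17, acts in asymmetric divisions such as those of the tail blast cells and of the vulval precursors. Its control libraries were almost the same, at 206, 193 and 198 CPM. The ΔN-BAR-1 libraries were at 141, 163 and 289 CPM, that is, replicates 1 and 2 lay below all control libraries and replicate 3 above them. The means were 199 ± 6.43 and 198 ± 79.8 CPM (SD, n = 3 each). The estimated fold was 0.997, with a 95% interval from 0.581 to 1.71 (edgeR adjusted p = 0.998). Both a rise to 1.71 times and a fall to 0.581 times the control level are thus within what these libraries allow.

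The gene mom-5 encodes the Frizzled receptor best known from the specification of endoderm in the embryo. Control replicates held 412, 510.0 and 280.0 CPM, and ΔN-BAR-1 replicates 587, 610.0 and 475 CPM. The ΔN-BAR-1 libraries were on the high side, but replicate 3 lay below control replicate 2. The fold was 1.36 with a 95% interval from 0.857 to 2.14 (edgeR adjusted p = 0.695). In the Ensembl annotation the tetraspanin gene tsp-7 overlaps mom-5 on the other strand, and since it is not stated whether strand was used in counting, their reads may not be fully separated.

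The fourth Frizzled gene, cfz-2, known for its part in cell migration along the body axis, had 0 counts in every control library and 4, 1 and 3 counts in ΔN-BAR-1 replicates 1 to 3. The pooled ΔN-BAR-1 level was 13.7 CPM with a 95% Poisson interval from 5.91 to 26.95 CPM, and that of control reached 8.30 CPM, so the intervals overlapped and no fold is given. When the filter was omitted, cfz-2 had an edgeR adjusted p of 0.595.

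Within each library the balance between the Frizzled genes can be read without any scaling between libraries. Counts of mig-1 made up 13.9%, 17.4% and 21.6% of all Frizzled counts in control replicates 1 to 3, and 38.1%, 33.8% and 23.6% in ΔN-BAR-1 replicates 1 to 3. The groups did not overlap, but ΔN-BAR-1 replicate 3 had an exact binomial 95% interval from 18.0% to 29.9%. That was within the interval of control replicate 3, from 9.83% to 38.2%. It also overlapped the intervals of control replicates 1 and 2, from 7.79% to 22.2% and from 12.5% to 23.25%. The log2 ratio of mig-1 to the other 3 Frizzled genes together was −2.21 ± 0.40 for control and −1.12 ± 0.51 for ΔN-BAR-1 (SD, n = 3 each). The difference of 1.09 gave p = 0.10 in an exact two-sided permutation test, which is the smallest p that 3 against 3 libraries allow.

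The order of mig-1 and lin-17 followed the same pattern. In control, mig-1 lay below lin-17 in all 3 libraries, and with ΔN-BAR-1 it lay above lin-17 in replicates 1 and 2 and below it in replicate 3. Counts of mom-5 were the most numerous of the Frizzled genes in every library, with 45.95% to 59.9% of them. The summed Frizzled level was 726 ± 121 CPM for control and 1135 ± 103 CPM for ΔN-BAR-1 (SD, n = 3 each), without overlap between groups (exact two-sided permutation p = 0.10). Without mig-1 the sum was 599.6 ± 114 and 769 ± 16.2 CPM, again with p = 0.10 in the exact permutation test.

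**Figure D3:**
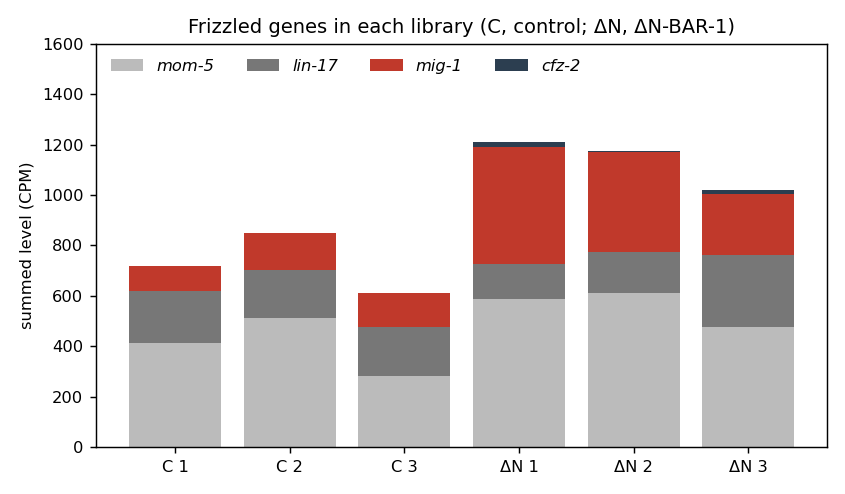
Summed level of the 4 Frizzled genes in CPM (vertical axis) in each library (C, control; ΔN, ΔN-BAR-1), stacked by gene. The mig-1 segment is 99.4 to 148 CPM high in control and 239.9 to 462 CPM in ΔN-BAR-1 libraries, and the cfz-2 segment is 0 in control.

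The Ror gene cam-1 encodes a receptor tyrosine kinase that binds Wnts and acts in neuronal migration. Its levels were 433, 337 and 790.5 CPM in control replicates 1 to 3 and 717, 564 and 289 CPM in ΔN-BAR-1 replicates 1 to 3. The highest and the lowest of the 6 values were replicate 3 of control and of ΔN-BAR-1, and the groups overlapped widely. The 95% Poisson intervals of control replicates 2 and 3, 268 to 419 and 583 to 1048 CPM, did not overlap, so libraries of the same group differed by more than counting error. The fold was 1.04, with a 95% interval from 0.601 to 1.81 (edgeR adjusted p = 0.976). The sign of its log2 fold change was not stable, as it ran from −0.23 to 0.43 when single libraries were left out.

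The Ryk gene lin-18, known from the polarity of a vulval precursor, was close to the limit of detection. It had 1, 9 and 0 counts in control replicates and 10, 4 and 1 counts in ΔN-BAR-1 replicates. Pooled levels were 22.5 CPM for control, with a 95% Poisson interval from 10.8 to 41.4, and 25.6 CPM in ΔN-BAR-1 libraries, from 14.4 to 42.3. A difference between the groups was not detectable at this depth.

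The Flamingo gene fmi-1, which acts in axon guidance and fasciculation, was the most abundant of the 9 in control, with 611, 880.2 and 856 CPM in replicates 1 to 3. In ΔN-BAR-1 replicates 1 to 3 it had 794, 386 and 1102 CPM. Both the lowest and the highest library thus carried ΔN-BAR-1, and their 95% Poisson intervals, 304 to 483.5 and 962 to 1255 CPM, lay far apart. The fold in the edgeR fit was 0.974, with a 95% interval from 0.580 to 1.64 (edgeR adjusted p = 0.983). This gene also used the most molecular identifiers, up to 150 of 256, where the estimate of transcripts was 1.5 times the identifiers seen.

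The Van Gogh gene vang-1, a component of planar polarity, was the lowest of the 7 tested genes. It stood at 78.1, 86.4 and 32.9 CPM in control replicates and at 125, 55.9 and 34.3 CPM in ΔN-BAR-1 replicates, from 2 to 23 counts per library. The groups overlapped over most of their range. The fold was 0.992 with a 95% interval from 0.466 to 2.11 (edgeR adjusted p = 0.998), the widest interval of the 7 on the log2 scale.

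The Prickle gene prkl-1 acts with Van Gogh in planar polarity and in the placing of neurites. Control replicates held 220.2, 148 and 313 CPM, and ΔN-BAR-1 replicates 446, 229 and 239.9 CPM. Only ΔN-BAR-1 replicate 1 lay above all control libraries. The fold was 1.41, with a 95% interval from 0.807 to 2.45 (edgeR adjusted p = 0.722).

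**Figure D4:**
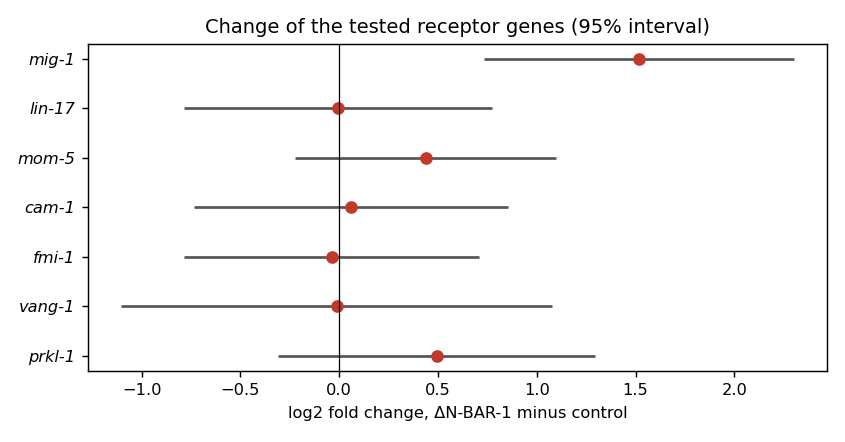
Log2 fold change (horizontal axis, ΔN-BAR-1 minus control) of the 7 tested genes, with 95% intervals from the edgeR fit that are not adjusted for the number of genes. The interval of mig-1 runs from 0.74 to 2.30, and those of the other 6 genes include 0.

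The ΔN-BAR-1 libraries differed among themselves in these genes. Replicate 1 held the highest ΔN-BAR-1 level of 6 of the 9 genes (mig-1, cfz-2, cam-1, lin-18, vang-1 and prkl-1), replicate 3 that of lin-17 and fmi-1, and replicate 2 that of mom-5. The share of all tested genes highest in replicate 1 was not counted, so this is no result about the 9 genes. Between whole libraries, chi-square divided by its degrees of freedom was 8.18 and 10.8 for replicate 1 against replicates 2 and 3. It was 5.61 between replicates 2 and 3. In replicate 1, cfz-2 and lin-18 rested on 4 and 10 counts. The same replicate 1 had the lowest summed muscle markers, 5995 CPM against 13980 and 20270 CPM in replicates 2 and 3, and the highest summed neuronal markers, 5109 CPM. The part of these differences in the levels of the 9 genes was not tested. Without ΔN-BAR-1 replicate 1, mig-1 kept a log2 fold change of 1.32.

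Genes whose centred log2 CPM profile over the 6 libraries was nearest to a receptor gene were found by the root mean square difference. Nearest to mig-1 were the kinase genes hpk-1 (0.16) and mpk-1 (0.17) and R02D5.1 (0.18), against a median of 0.89 over all tested genes. As they were picked for the smallest differences, they lie below the median by selection. Of these hpk-1 had 85.2, 119.3 and 132 CPM in control and 332, 285 and 196 CPM in ΔN-BAR-1 replicates 1 to 3, and none of the 3 passed the test (edgeR adjusted p = 0.0927, 0.135 and 0.0606). The nearest profile to lin-17 was that of usp-5 (0.082), to mom-5 that of tomm-20 (0.13) and to cam-1 that of K05C4.5 (0.12). For fmi-1 it was nmy-2 (0.16), for vang-1 cdc-14 (0.18) and for prkl-1 unc-83 (0.11).

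Other genes of the pathway were followed in 5 lists of 35 genes in all, of which 18 were tested and 0 passed the test in either direction, beside 1.65% of all tested genes, so with 18 genes this count is no result about the lists. At an unadjusted p below 0.05 there were 2 of the 18, beside 11.6% of all tested genes, and DESeq2 and limma-voom called 0. The groups did not overlap in 2 of the 18, dsh-2 and pop-1, beside 17.4% of all tested genes. Their median log2 fold change was −0.07.

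Among the 5 Wnt ligand genes only cwn-2 was tested, at 217 ± 59.0 CPM for control and 209 ± 107 CPM for ΔN-BAR-1 (SD, n = 3 each), a log2 fold change of −0.05 with an edgeR adjusted p of 0.977. The posterior ligand gene egl-20 had 0, 1 and 0 counts in control and 0, 2 and 1 in ΔN-BAR-1 replicates. The gene mom-2, whose product acts in the early embryo, was at 0 in all 6 libraries, and cwn-1 had between 1 and 11 counts per library. Of 8 genes of Wnt secretion 4 were tested and 0 passed. The retromer subunit gene vps-26 stood at a log2 fold change of −0.18 ± 0.41 (SE), the phosphatase family gene mtm-9 at −0.15 ± 0.54, and the sorting nexin gene snx-3 and the retromer gene vps-29 within 0.0034 of 0.

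A further list held 6 genes taken as modulators of Wnt or its receptors at the cell surface, a role not tested here. Of these 6, 2 were tested for a change and 0 passed. The syndecan gene sdn-1 was at 789 ± 158 and 706 ± 212 CPM, and mig-13, which encodes a transmembrane protein that promotes forward migration of QR descendants, at 752 ± 147 and 902 ± 138 CPM (SD, n = 3 each; edgeR adjusted p = 0.928 and 0.840). The secreted Frizzled-related gene sfrp-1 was at 0 in all libraries. The gene plr-1, whose product is a ubiquitin ligase that lowers Frizzled at the cell surface, had 0, 3 and 0 counts in control and 6, 1 and 0 in ΔN-BAR-1 replicates.

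Of 8 genes of Dishevelled and the cytoplasmic cascade 6 were tested and 0 passed. The Dishevelled gene dsh-2 ranged from 304 to 395 CPM in control and from 196 to 255.5 CPM in ΔN-BAR-1 libraries, without overlap (log2 fold change −0.69 ± 0.33 SE, edgeR adjusted p = 0.419). The Dishevelled gene dsh-1 stood at 0.58 ± 0.57, the APC-related gene apr-1 at 0.33 ± 0.54 and the casein kinase gene kin-19 at −0.15 ± 0.32. The kinase gene gsk-3 held 2 counts over all 6 libraries, so a near-zero value in this table also occurs for a kinase used in most cells.

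Of 8 genes of β-catenins, TCF and their kinases 5 were tested and 0 passed. The β-catenin gene wrm-1 ranged from 148 to 220.2 CPM in control and from 203 to 484 CPM in ΔN-BAR-1 libraries (log2 fold change 0.93 ± 0.38 SE, edgeR adjusted p = 0.296). The TCF gene pop-1 ranged from 973 to 1366 CPM in control and from 1381 to 2882 CPM in ΔN-BAR-1 libraries, without overlap (log2 fold change 0.62 ± 0.35 SE, edgeR adjusted p = 0.555). The β-catenin gene sys-1 stood at −0.56 ± 0.45 and the Nemo-like kinase gene lit-1 at −0.24 ± 0.31.

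**Figure D5:**
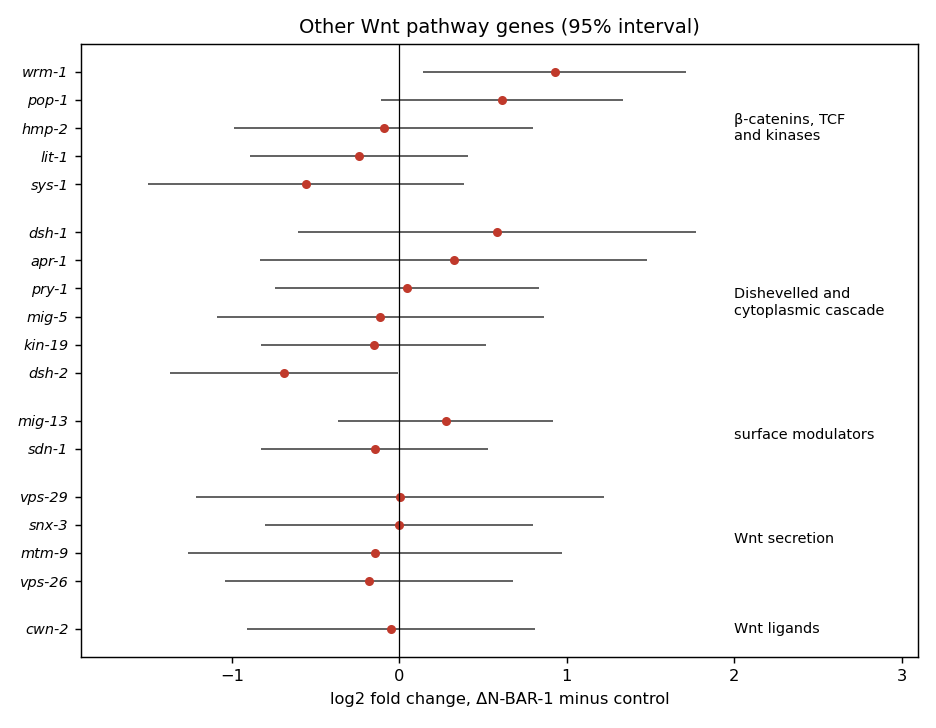
Log2 fold change (horizontal axis, ΔN-BAR-1 minus control) with unadjusted 95% intervals for the 18 tested genes of the 5 lists, grouped by list. The intervals of wrm-1 and dsh-2 leave out 0 before adjustment, and neither gene passes after it.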

How the data were processed

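CEL-seq, which counts transcripts at their 3′ ends, was used with CEL-seq2 library preparation, per the labels' protocols. The authors deposited 1 table of estimated counts of transcripts per gene without normalisation across libraries. How reads were aligned and counted, and on which build, is not given in the sources used. Deposited values follow the usual correction for chance collisions among 256 molecular identifiers, except that the column of ΔN-BAR-1 replicate 3 holds a rescaled form. There each value is divided by the estimate for 1 identifier, which is close to 1, so most values barely differ. The highest value in that column, held by 4 genes, was 3182 against at most 1597 elsewhere, which is more than this rescaling gives. Inverting each column in its own form gave whole numbers (tolerance 0.02) for at least 99.9% of values above 0 in each library. All 6 columns were used.

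Estimated counts were rounded and tested with edgeR 4.0.16 in R 4.3.3 (TMM, filterByExpr with min.count 10 and min.total.count 15, robust quasi-likelihood F test, two-sided, group as the only term), with Benjamini-Hochberg adjustment over all 3447 tested genes. Library sizes are those of the filtered genes after TMM. SE and 95% intervals of log2 fold changes come from the F statistic and its degrees of freedom. Ratios used a pseudocount of 0.5. Poisson and binomial intervals are exact (95%) and cover counting error only. The code was tested on simulated data. Alternatives were other scalings and filters, DESeq2 1.42.0, limma-voom (limma 3.58.1), a replicate block, thinning to the shallowest library, distinct identifiers, and leaving out each library. Libraries of a group differed beyond counting error, so none was taken as deposited more than once. Chi-square divided by its degrees of freedom was 2.98 to 3.19 between control libraries and 5.61 to 10.8 between ΔN-BAR-1 libraries.

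The 9 genes and all lists were chosen with earlier results of these data known. Named from each list are up to 4 tested genes with the smallest p, and any that passed; other list genes, hlh-1, dpy-7, rol-6, elt-2, ges-1, pha-4, glh-2, nos-2 and tsp-7 were named after their values were seen. All 9 names matched a gene ID. Overlaps between genes come from Ensembl annotation of WBcel235, which may not be the authors' build, so no coordinates are given.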

Additional observations from a re-analysis of the deposited data

How the results depend on the processing

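Of the 9 genes, 1 was called with DESeq2 size factors, no filter, the stricter filter (min.count 30), DESeq2, thinned counts and distinct identifiers, and 0 with upper quartile scaling, limma-voom or the replicate block, where mig-1 had log2 fold changes of 1.43, 1.45 and 1.54 (adjusted p = 0.0713, 0.132 and 0.145). Leaving out single libraries gave 0 to 1 called genes and 1.32 to 1.71 for mig-1. Over all genes the count of changes was 57 as reported, 9 by limma-voom, 19 with the replicate block, 27 in thinned counts, 35 under the stricter filter and 101 when no filter was used. It ran from 16 to 121 when 1 library was omitted: 16, 21 and 26 for control replicates 1 to 3, then 121 and 86 for replicates 1 and 3 of ΔN-BAR-1. Thinning and the stricter filter left 1428 and 1414 genes to test. The cause of the differences in these counts was not tested. Genes near 0 changed sign without passing: lin-17 (0.0012 without a filter, 0.014 with the stricter filter, 0.25 thinned, −0.42 to 0.19 without single libraries), cam-1 (−0.029 with upper quartile scaling, −0.016 with distinct identifiers, −0.23 to 0.43), fmi-1 (0.0023 with the stricter filter, 0.090 thinned, −0.45 to 0.25) and vang-1 (0.0042 with DESeq2, 0.034 with the replicate block, −0.68 to 0.29). The genes mom-5 and prkl-1 stayed above 0 in all 15 alternatives, and vang-1 was not tested in 2. The difference between the groups in the log2 ratio of mig-1 to the other Frizzled genes stayed between 0.88 and 1.38. Its exact two-sided permutation p was 0.20 when any library other than ΔN-BAR-1 replicate 3 was left out. It was 0.10 in the other alternatives. Same-numbered libraries correlated at −0.15, −0.08 and −0.03 after group means were subtracted, which gives no sign that the replicate numbers pair them. In control replicate 3 the depth limits what can be said of cfz-2, lin-18 and vang-1.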

Other observations

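The tetraspanin gene tsp-7, annotated on the strand opposite mom-5, was named after its values were seen. It did not pass the filter on low counts and was not tested. It had 2, 6 and 3 counts in control and 34, 26 and 10 counts in ΔN-BAR-1 replicates 1 to 3, that is, 29.4 ± 18.1 and 122 ± 68.5 CPM (SD, n = 3 each). The groups overlapped, since ΔN-BAR-1 replicate 3 at 49.0 CPM was just below the highest control library at 49.4 CPM. Opposite vang-1 lies B0410.3, with 0, 1 and 0 counts in control and 3, 2 and 4 in ΔN-BAR-1 replicates. The genes annotated opposite lin-18 and prkl-1, C16B8.2 and him-3, were at 0 in all 6 libraries.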
